A study of Mus musculus with 27 samples.

Results

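The 7 genes described here encode the mouse FAT10 and ISG15 ubiquitin-like modifier system. They comprise the modifiers Ubd (the gene of FAT10) and Isg15, the activating enzyme Uba7, the conjugating enzyme Ube2l6, the ligases Herc6 and Trim25, and the protease Usp18. They were taken by gene symbol, and all 7 were found among the 54752 Ensembl genes of the deposited count tables. The rule that names them uses no measured value, but the genes were chosen with earlier results of these data known. Their counts set beside shares of all genes are therefore descriptions.

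The study compared whole tumors grown from CT26 cells, a murine colon carcinoma line, in BALB/c mice under antibody treatment. The cells had been transduced by retrovirus with a guide RNA and injected under the skin, and each of the 3 groups analysed had 5 RNA-seq libraries. The groups were tumors of cells with a control guide, tumors with a guide against Mettl3 (Mettl3 KO) and tumors with a guide against Mettl14 (Mettl14 KO). Mettl3 and Mettl14 encode the catalytic subunit and the RNA-binding partner of the N6-methyladenosine (m6A) writer, the enzyme that methylates adenosines in messenger RNA. The series' design text gives anti-PD-1, an antibody that blocks an inhibitory receptor on T cells, as the therapy of all groups, whereas the treatment protocol lists several antibodies, given at 200 µg (10 mg/kg) between days 11 and 23. The age of the mice and whether each line came from 1 clone were not given in the sources used here. Only the injected cells carried a guide, so host cells in the same tumor kept both genes. The samples titled Mettl14 carry the genotype entry Mettl4, and the title, the design text and the count table were followed. A further 12 samples of methylated-RNA immunoprecipitation and its input were not analysed here.

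Each library had between 4354273 and 20978633 reads on genes. Control replicates 2 to 5 had 12547517 to 20978633 reads, more than any Mettl3 KO library (4354273 to 9332032). Only control replicate 1 (5520340 reads) overlapped with the Mettl3 KO libraries in depth. Of the uniquely placed reads, those outside genes made up 46.1 to 79.2% in control tumors, 61.4 to 78.7% in Mettl3 KO tumors and 54.8 to 67.0% in Mettl14 KO tumors. Control replicate 1 had the highest share of all 15 libraries, and the other control libraries (46.1 to 55.1%) lay below every Mettl3 KO library. The targeted genes check the labels only in part, because a guide need not lower the transcript and host cells are unedited. Mettl3 stood at 19.5 ± 3.59 counts per 1000000 reads on genes (CPM; mean ± SD, n = 5) in control and 13.8 ± 1.45 CPM in Mettl3 KO tumors, with overlapping ranges. Mettl14 stood at 69.5 ± 11.7 CPM in control and 61.6 ± 12.4 CPM in Mettl14 KO tumors, also with overlapping ranges. Nothing in the labels ties the 5 libraries of a group to separate mice, so the p-values measure only how these samples spread, which may be technical. In RNA from whole tumors, a change in how many cells express a gene and a change in its RNA per cell cannot be told apart.

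FAT10 and ISG15 are small proteins built of tandem ubiquitin-like domains, and each is joined through its C-terminal glycines to lysines of other proteins. FAT10 is activated and passed on by Uba6 and Ube2z, its conjugates are carried to the proteasome, and its gene responds strongly to interferon-gamma and tumor necrosis factor and is high in antigen-presenting cells. ISG15 is activated by Uba7, passed to Ube2l6 and placed on newly made proteins by ligases, of which Herc6 is the main one in mice. Usp18 removes ISG15 from its targets and also binds the type I interferon receptor, where it dampens signalling. Trim25 joins ubiquitin, and in some settings ISG15, to proteins and is best known for activating the RNA sensor RIG-I. Most of these genes are induced by interferons.

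The promoters of both modifiers are shown because Ubd and Isg15 head the system and their promoters hold different motif letters. RefSeq promoter windows on GRCm38.p6 (the build also called mm10) were found for 6 of the 7 genes: Ubd, Isg15, Uba7, Ube2l6, Herc6 and Trim25. Each window runs from 250 bases before to 50 bases after the gene's start, and the 250 bases before the start are printed 5′ to 3′ on the gene's strand, with matches to the searched motifs in capitals. The Ubd stretch is chr17:37193642-37193891 on the plus strand and the Isg15 stretch is chr4:156200819-156201068 on the minus strand.
Ubd: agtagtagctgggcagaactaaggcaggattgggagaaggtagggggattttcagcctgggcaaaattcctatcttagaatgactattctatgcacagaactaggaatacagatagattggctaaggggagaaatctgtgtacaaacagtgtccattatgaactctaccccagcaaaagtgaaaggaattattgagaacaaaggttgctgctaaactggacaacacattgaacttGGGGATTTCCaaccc
Isg15: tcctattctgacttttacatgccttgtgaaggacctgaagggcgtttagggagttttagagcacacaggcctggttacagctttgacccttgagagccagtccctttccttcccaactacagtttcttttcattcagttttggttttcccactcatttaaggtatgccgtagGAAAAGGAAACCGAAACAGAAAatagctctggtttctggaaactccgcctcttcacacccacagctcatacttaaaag

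The searched motifs were read on both strands. The core of the interferon-stimulated response element (ISRE), GAAANNGAAA, is read by IRF proteins. The gamma-activated site (GAS), TTCNNNGAA, is known from interferon-gamma responses, and an NF-kappaB site is read by the NF-kappaB family. The Isg15 window held 3 matches to the ISRE core, at positions -78, -72 and -66 from the start, which overlap each other as 1 run of letters. The Ubd window held 1 match to the NF-kappaB motif, at position -15, and none to the other motifs. The windows of Uba7, Ube2l6, Herc6 and Trim25 held no match to any of the 3 motifs. Among 32544 distinct promoter windows of the same length, 3.45% held an ISRE core, 8.33% a GAS and 8.49% an NF-kappaB match. A match describes the letters of the window and not binding.

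Levels below are CPM after scaling by the trimmed mean of M-values (TMM) over all 15 libraries, and each list of 5 values runs from replicate 1 to replicate 5. Fold changes and adjusted p-values are from edgeR's quasi-likelihood test with Benjamini-Hochberg adjustment over all genes tested, at a threshold of 0.05. Ubd had the largest log2 fold change of the 7 genes in both comparisons with control, and Trim25 the one nearest to 0. In Mettl3 KO tumors 2 of the 7 genes, Ubd and Herc6, rose and none fell, against a background of 0.406% of the 21427 genes tested that rose and 0.835% that fell (1.24% in either direction). At an unadjusted p under 0.05, 4 of the 7 were higher and none lower, against 5.26% of genes that were higher and 32.3% that differed in either direction. In that comparison 6 of the 7 log2 fold changes lay above 0, and their median was 0.55 beside -0.14 over all genes. None of the 7 passed the threshold in Mettl14 KO tumors in edgeR, where 0% of 21555 genes did. All 7 log2 fold changes lay above 0 there, with a median of 1.02 beside -0.09 over all genes. In that comparison 6 of the 7 had an unadjusted p under 0.05 (all but Trim25), against a background of 4.74% of genes that were higher at that p, and DESeq2 called 2, Ubd and Herc6, against 1.14% of genes.

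**Figure D1:**
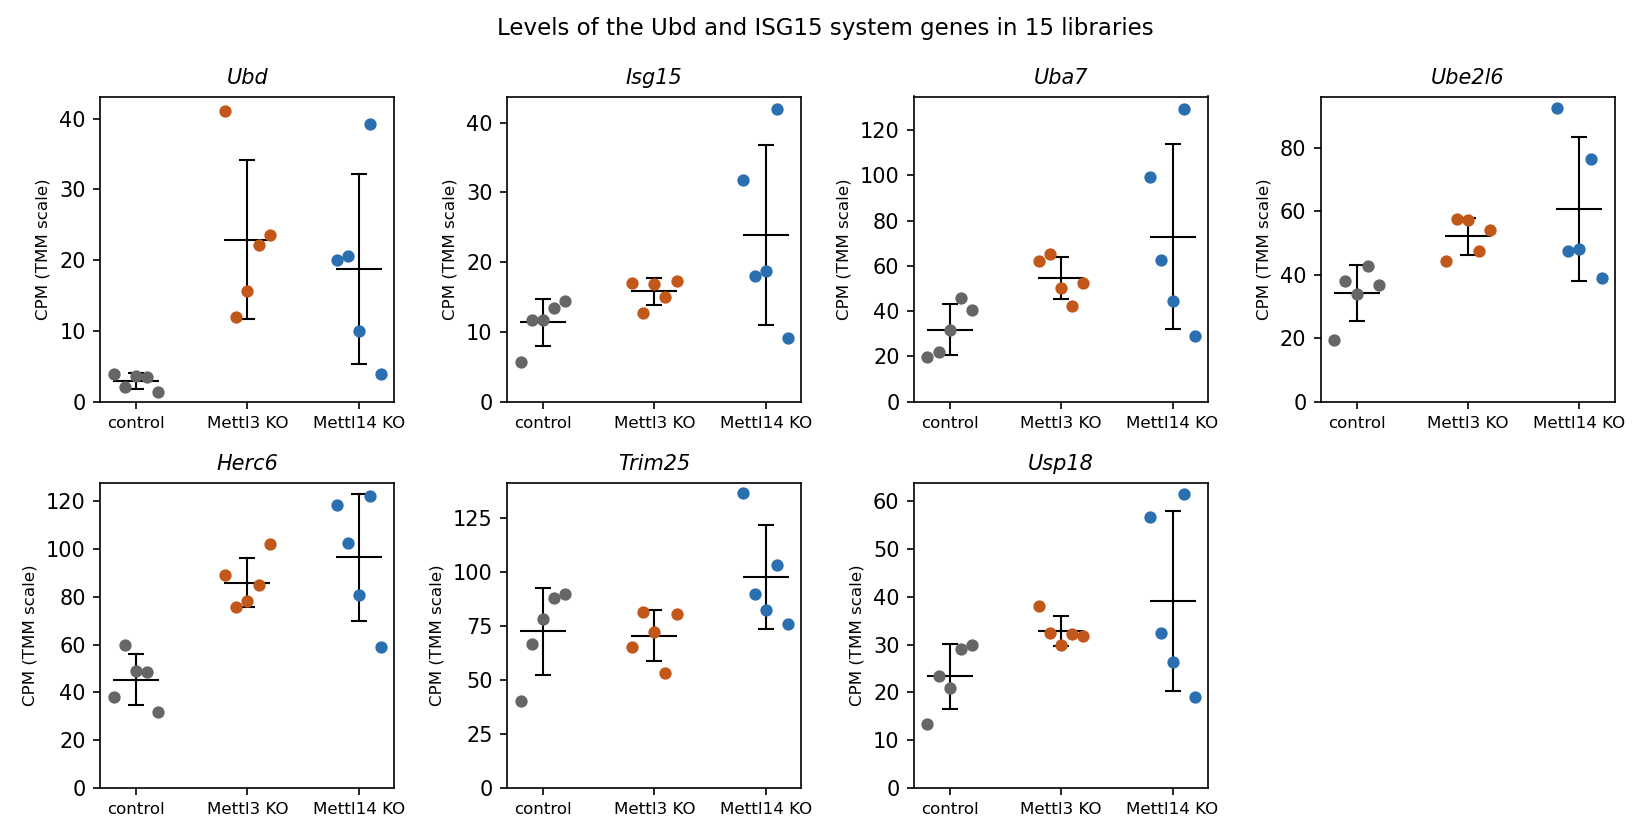
Level of each of the 7 genes in CPM (vertical axis, linear from 0, 1 panel per gene), with a point for each of the 5 libraries of control, Mettl3 KO and Mettl14 KO tumors and a bar for the mean ± SD. Ubd has the largest ratio of knockout to control means (7.95 for Mettl3 KO and 6.52 for Mettl14 KO), although its lowest Mettl14 KO library barely clears the highest control. The Mettl14 KO libraries spread more widely than the others in most panels.

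Ubd (ENSMUSG00000035186; mm10, chr17:37193892-37196095, plus strand) encodes FAT10. Its level was 3.89, 2.03, 3.67, 3.48 and 1.31 CPM in control tumors. It was 41.1, 12.0, 15.6, 22.1 and 23.5 CPM in Mettl3 KO tumors and 20.1, 20.6, 9.95, 39.2 and 3.96 CPM in Mettl14 KO tumors. All 5 Mettl3 KO libraries lay above all control libraries by a wide margin. All 5 Mettl14 KO libraries did so too, but Mettl14 KO replicate 5 cleared the highest control, replicate 1, by less than 0.1 CPM. Scaled by library totals alone, that order turned, with 4.22 CPM in Mettl14 KO replicate 5 and 4.35 CPM in control replicate 1.

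The Ubd values rest on 21 to 63 reads per control library, 85 to 192 per Mettl3 KO library and 39 to 497 per Mettl14 KO library. Ubd rose in Mettl3 KO tumors by 2.96 on the log2 scale (SE 0.41; edgeR adjusted p = 0.0111), and the mean CPM was 7.95-fold that of control. In Mettl14 KO tumors the log2 fold change was 2.66 (SE 0.53; edgeR adjusted p = 0.130, unadjusted p = 0.000305), and the mean CPM was 6.52-fold that of control. DESeq2 gave the Mettl14 KO difference a call, as did edgeR without Mettl14 KO replicate 5 (adjusted p = 0.0165, with 0.614% of genes called higher) or without control replicate 1 (adjusted p = 0.0406, with 2.86% called higher). With the share of reads outside genes as a covariate, the Mettl3 KO log2 fold change was 2.56 (SE 0.47) and just missed the threshold (edgeR adjusted p = 0.0513).

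Isg15 (ENSMUSG00000035692; mm10, chr4:156199424-156200818, minus strand) encodes the other modifier. Its level was 5.68, 11.7, 11.7, 13.4 and 14.5 CPM in control tumors. It was 17.0, 12.8, 16.9, 15.1 and 17.3 CPM in Mettl3 KO tumors and 31.8, 18.0, 18.7, 41.9 and 9.14 CPM in Mettl14 KO tumors. Control replicate 1 was the lowest library, Mettl14 KO replicates 1 and 4 the highest, and the groups overlapped in both comparisons with control. The log2 fold change was 0.41 in Mettl3 KO tumors (SE 0.23; edgeR adjusted p = 0.216) and 1.02 in Mettl14 KO tumors (SE 0.34; edgeR adjusted p = 0.293). Neither passed the threshold.

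Uba7 (ENSMUSG00000032596; mm10, chr9:107975505-107984060, plus strand) encodes the enzyme that activates ISG15. Its level was 19.6, 21.9, 31.5, 45.7 and 40.4 CPM in control tumors. It was 62.3, 65.3, 50.4, 42.3 and 52.3 CPM in Mettl3 KO tumors and 99.2, 62.7, 44.5, 129 and 29.0 CPM in Mettl14 KO tumors. The groups overlapped, through Mettl3 KO replicate 4 and through Mettl14 KO replicates 3 and 5. The log2 fold changes were 0.70 (SE 0.23; edgeR adjusted p = 0.0741) and 1.14 (SE 0.36; edgeR adjusted p = 0.270), and neither passed the threshold. Uba7 shares 3.48% of its exon bases with the gene model Gm20661 on the same strand, so a small part of its reads could have been left uncounted or assigned elsewhere.

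Ube2l6 (ENSMUSG00000027078; mm10, chr2:84798828-84810335, plus strand) encodes the conjugating enzyme that takes ISG15 from Uba7. Its level was 19.5, 38.1, 33.9, 42.9 and 36.8 CPM in control tumors. It was 44.4, 57.5, 57.2, 47.4 and 54.1 CPM in Mettl3 KO tumors and 92.5, 47.4, 48.0, 76.6 and 38.9 CPM in Mettl14 KO tumors. All 5 Mettl3 KO libraries lay above all control libraries, although by library totals the lowest Mettl3 KO library (37.1 CPM) fell below the highest control (42.9 CPM). Mettl14 KO replicate 5 lay within the control range. The log2 fold changes were 0.55 (SE 0.18; edgeR adjusted p = 0.0684) and 0.78 (SE 0.24; edgeR adjusted p = 0.261), and neither passed the threshold.

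Herc6 (ENSMUSG00000029798; mm10, chr6:57581000-57664632, plus strand) encodes the main ISG15 ligase of the mouse. Its level was 38.1, 59.6, 48.7, 48.5 and 31.7 CPM in control tumors. It was 89.2, 75.8, 78.3, 84.8 and 102 CPM in Mettl3 KO tumors and 118, 103, 81.0, 122 and 58.8 CPM in Mettl14 KO tumors. All 5 Mettl3 KO libraries lay above all control libraries, and in Mettl14 KO tumors replicate 5 lay just under the highest control, although by library totals it lay above it (62.7 against 49.1 CPM). Ubd, Ube2l6 and Herc6 were the members without overlap in the Mettl3 comparison, where 1.76% of genes tested lay wholly above control. Ubd was the only such member in the Mettl14 comparison, where 0.682% of genes did.

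Herc6 rose in Mettl3 KO tumors by 0.88 on the log2 scale (SE 0.16; edgeR adjusted p = 0.0385), and its mean was 1.90-fold that of control. In Mettl14 KO tumors the log2 fold change was 1.05 (SE 0.21; edgeR adjusted p = 0.130, unadjusted p = 0.000313). The Mettl3 KO call was kept without control replicate 1 or control replicate 2 and was lost without any 1 of the other 8 libraries, where edgeR's adjusted p ran up to 0.116. It was also lost with DESeq2 (1.73% of genes called higher), with a mean of at least 1 CPM as the filter (0.28%), with no filter (0.0638%), with the covariate (0.177%) and with all 15 libraries in the fit (0.0692%). The log2 fold change was 0.67, 0.97, 0.68, 0.89 and 0.92 in these fits. Herc6 shares 13.7% of its exon bases with the gene model Gm45193 on the same strand.

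Trim25 (ENSMUSG00000000275; mm10, chr11:88999376-89020293, plus strand) encodes the ligase of the RIG-I pathway. Its level was 40.4, 66.8, 78.0, 88.0 and 89.8 CPM in control tumors. It was 65.0, 81.5, 72.0, 53.2 and 80.6 CPM in Mettl3 KO tumors and 136, 89.7, 82.5, 103 and 76.1 CPM in Mettl14 KO tumors. The 3 groups overlapped, and control replicate 1 was the lowest library of all. The log2 fold change was -0.11 in Mettl3 KO tumors (SE 0.20; edgeR adjusted p = 0.667), and its sign turned to 0.059 with scaling by library totals and to 0.31 with the covariate. For Mettl14 KO tumors it was 0.39 (SE 0.21; edgeR adjusted p = 0.511).

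Usp18 (ENSMUSG00000030107; mm10, chr6:121245906-121270917, plus strand) encodes the protease that takes ISG15 off its targets. Its level was 13.3, 23.4, 20.9, 29.2 and 30.0 CPM in control tumors. It was 38.1, 32.4, 30.0, 32.2 and 31.7 CPM in Mettl3 KO tumors and 56.7, 32.5, 26.3, 61.5 and 19.0 CPM in Mettl14 KO tumors. Mettl3 KO replicate 3 and the highest control met at nearly the same value, and Mettl14 KO replicates 3 and 5 lay within the control range. The log2 fold changes were 0.43 (SE 0.20; edgeR adjusted p = 0.155) and 0.70 (SE 0.30; edgeR adjusted p = 0.414), and neither passed the threshold. Usp18 shares 4.44% of its exon bases with the antisense gene model Gm44148, and the strand setting of the counting is not given in the sources used here.

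**Figure D2:**
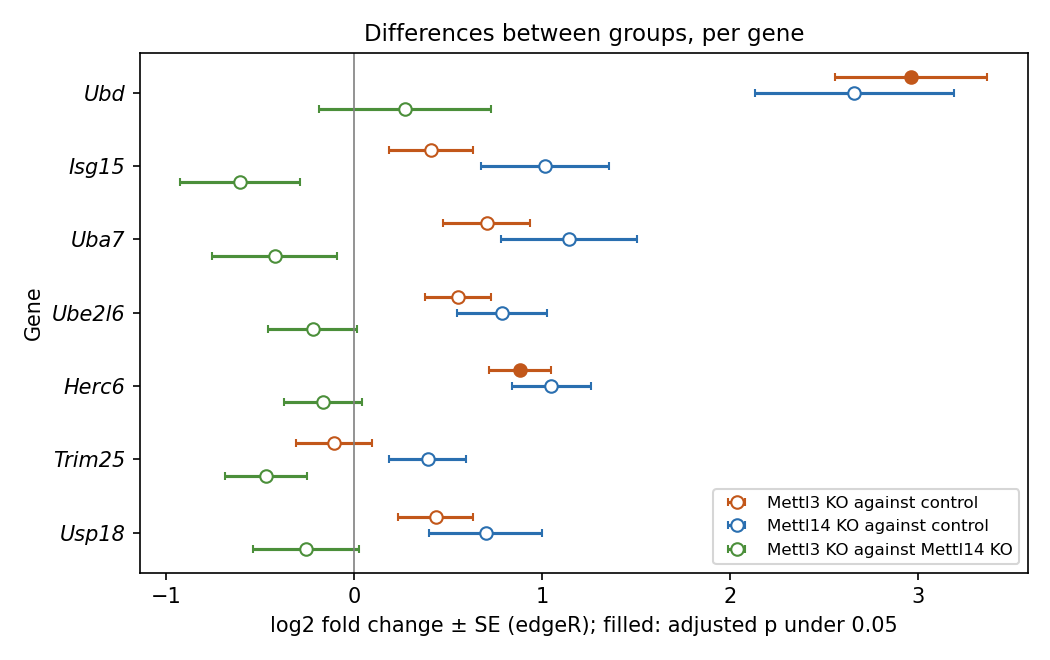
Log2 fold change of each gene in edgeR (horizontal axis) for Mettl3 KO against control, Mettl14 KO against control and Mettl3 KO against Mettl14 KO, with bars for the standard error and filled points for an adjusted p under 0.05. Ubd lies near 3 in both comparisons with control, Isg15, Uba7, Ube2l6, Herc6 and Usp18 lie between 0.41 and 1.14 there, and Trim25 lies nearest to 0.

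Genes of like abundance had medians under 0, and the members stood above them. Among the 500 genes nearest to each member in mean abundance, the median log2 fold change in Mettl3 KO tumors lay between -0.51 and -0.24. Relative to that median, Ubd stood at 3.21, Herc6 at 1.39, Uba7 at 1.17, Ube2l6 at 1.01, Usp18 at 0.86, Isg15 at 0.71 and Trim25 at 0.40 on the log2 scale. With TMM scaling, the calls over all genes in that comparison were 87 higher and 179 lower. They were 72 higher and 28 lower with edgeR's relative log expression scaling, and 106 higher and 16 lower with library totals. Ubd and Herc6 were called in edgeR under all 3 scalings, the latter ones calling 0.336% and 0.495% of genes higher. The DESeq2 run, with its own scaling, did not call Herc6 (DESeq2 adjusted p = 0.0531).

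Both knockouts share their 5 control libraries, so the 2 sets of fold changes are not independent. Control replicate 1 was the lowest control library for 5 of the 7 genes and the highest for Ubd. Without it, 6 of the 7 genes (all but Trim25) rose in the Mettl3 comparison in edgeR, but 36.2% of all genes tested were then called higher. Without any 1 of the other 9 libraries, 1 or 2 members were called, with 0.135 to 0.247% of genes called higher.

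Compared directly in a fit of all 15 libraries, Mettl3 KO and Mettl14 KO tumors did not differ for any member beyond the threshold, where edgeR called 0% of 24566 genes. The log2 difference, Mettl3 KO minus Mettl14 KO, was 0.27 for Ubd (SE 0.46; adjusted p = 0.687) and -0.61 for Isg15 (SE 0.32; adjusted p = 0.349). It lay between -0.47 and -0.17 for the other 5 genes, and Trim25 alone, lower in Mettl3 KO tumors, had an unadjusted p under 0.05, as did 12.8% of genes in either direction and 4.79% that were higher in Mettl3 KO tumors. The groups overlapped for all 7 members, where 1.65% of genes lay wholly above and 1.87% wholly below. DESeq2 also called none of the 7. A p that misses the threshold does not show that both knockouts act alike on these genes.

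The Mettl14 KO libraries had the largest coefficient of variation for 6 of the 7 genes, all but Trim25 (24.6%, against 27.8% in control). The coefficient of variation (SD over mean) of Isg15 was 54.0% in Mettl14 KO tumors, 29.9% in control and 12.1% in Mettl3 KO tumors, and that of Usp18 was 48.2%, 29.1% and 9.40%. Mettl14 KO replicate 5 was the lowest of its group for all 7 genes. Mettl14 KO replicate 4 was the highest for 5 genes and among the top 2 for all 7, and replicate 1 was among the top 2 for 6. The members thus shared much of the order of libraries within this group.

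**Figure D3:**
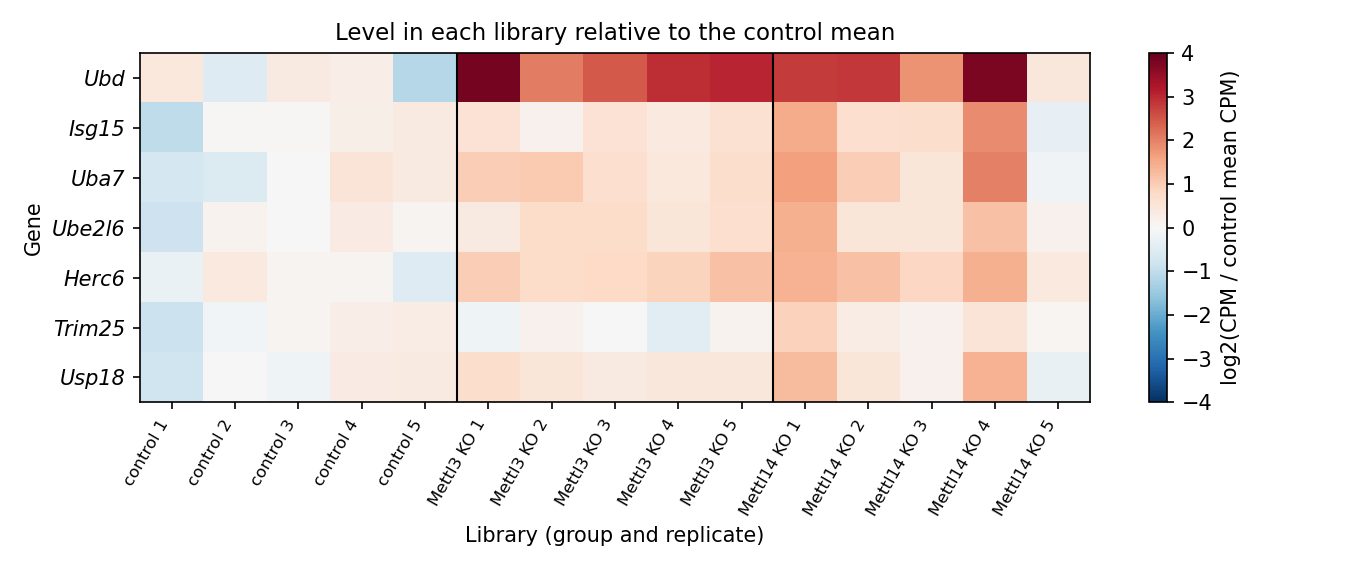
Level of each gene in each of the 15 libraries, as log2 of the CPM over the mean control CPM of that gene (color scale), with libraries in columns and genes in rows. Mettl14 KO replicates 1 and 4 are the highest columns for most genes, Mettl14 KO replicate 5 is the lowest of its group in every row, and the Ubd row has the strongest color.

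Per kilobase of exon, which allows genes to be compared in level, the order of the members changed between groups. In control tumors it ran from Ube2l6 (17.1 ± 4.44 CPM per kilobase, mean ± SD, n = 5) through Isg15 (15.1 ± 4.50), Trim25 (12.6 ± 3.51), Usp18 (8.37 ± 2.44), Herc6 (4.88 ± 1.16) and Uba7 (4.75 ± 1.69) to Ubd (3.09 ± 1.22), with every pair of neighbours overlapping. In Mettl3 KO tumors Ube2l6 (26.1 ± 2.97) was followed by Ubd (24.6 ± 12.1), Isg15 (20.9 ± 2.52), Trim25 (12.2 ± 2.05), Usp18 (11.8 ± 1.11), Herc6 (9.26 ± 1.11) and Uba7 (8.14 ± 1.39). The ranges of Isg15 and Trim25 were the only neighbouring pair there that did not overlap. In Mettl14 KO tumors the order was Isg15 (31.6 ± 17.1), Ube2l6 (30.4 ± 11.4), Ubd (20.1 ± 14.4), Trim25 (17.0 ± 4.17), Usp18 (14.0 ± 6.77), Uba7 (10.9 ± 6.12) and Herc6 (10.4 ± 2.86), all overlapping their neighbours. Ubd thus stood last in control tumors, at the second place in Mettl3 KO and at the third place in Mettl14 KO tumors.

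Whether the members kept their proportion to Isg15 was tested within libraries, on log2((member CPM + 0.5)/(Isg15 CPM + 0.5)). Each of the 6 other genes was compared between each pair of groups by a two-sided exact permutation test of 5 against 5 libraries, whose smallest p is 0.00794, with adjustment over the 18 tests. None of the 18 passed the threshold after adjustment, and 4 had an unadjusted p under 0.05. A single ratio at the smallest permutation p has an adjusted p of 0.143 over 18 tests and so could not pass alone. The misses therefore do not show that the members kept their proportion. The log2 ratio of Ubd to Isg15 was -1.83 ± 0.94 in control tumors (mean ± SD, n = 5), 0.40 ± 0.56 with the Mettl3 guide and -0.51 ± 0.54 with the Mettl14 guide. In all 5 Mettl3 KO libraries it lay above all controls, a difference of 2.24 (exact permutation p = 0.00794, adjusted p = 0.143). For Mettl14 KO tumors the difference from control was 1.32 (exact permutation p = 0.0317, adjusted p = 0.179), and between the knockouts it was 0.91 (exact permutation p = 0.0397, adjusted p = 0.179).

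The log2 ratio of Trim25 to Isg15 ran the other way. It was 2.63 ± 0.10 in control tumors, 2.11 ± 0.33 with the Mettl3 guide and 2.15 ± 0.61 with the Mettl14 guide, and 4 of 5 Mettl3 KO libraries lay below all controls (difference -0.51, exact permutation p = 0.0238, adjusted p = 0.179). The log2 ratio of Usp18 to Isg15, the eraser against its modifier, was 1.01 ± 0.13, 1.04 ± 0.21 and 0.74 ± 0.22 in the same order. It differed by 0.03 between Mettl3 KO and control (exact permutation p = 0.817) and by -0.27 between Mettl14 KO and control (exact permutation p = 0.0714, adjusted p = 0.214). For Uba7, Ube2l6 and Herc6 the differences from control lay between -0.14 and 0.43.

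**Figure D4:**
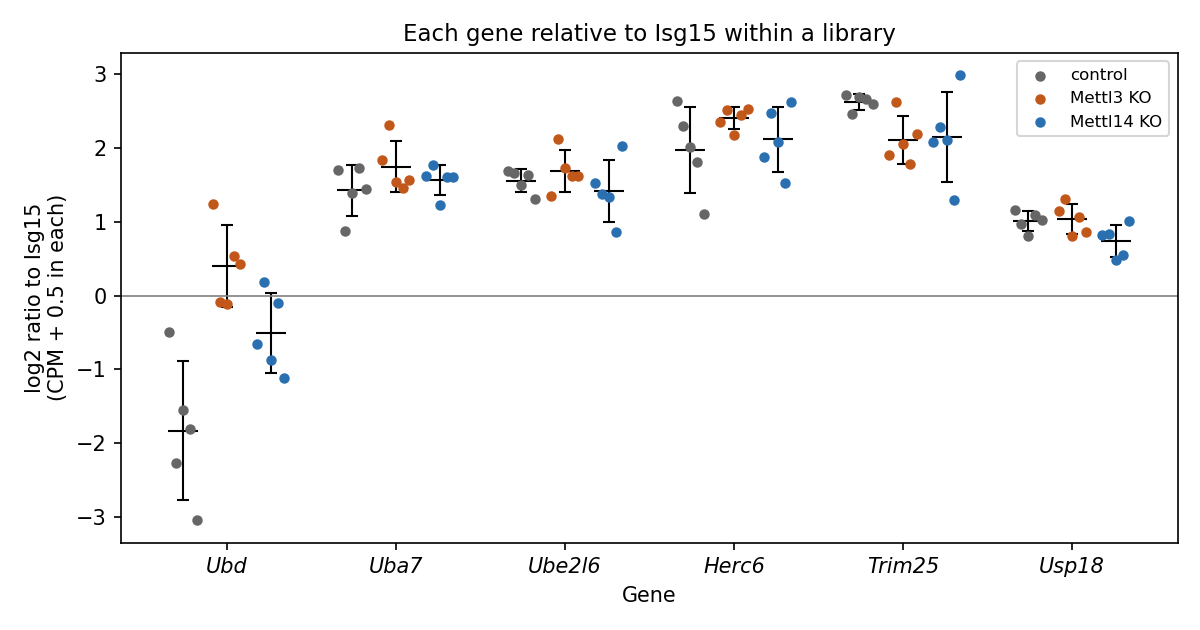
Log2 ratio of each gene to Isg15 within a library (vertical axis), with a point for each of the 5 libraries per group and a bar for the mean ± SD. The Ubd log2 ratio is higher in all 5 Mettl3 KO libraries than in any control library, and the Usp18 log2 ratio stays near 1 in control and Mettl3 KO tumors.

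The genes whose pattern was most like each modifier differed between Ubd and Isg15. Likeness was the Pearson correlation of log2(CPM + 0.5) over the 15 libraries among 16899 genes with a mean of at least 1 CPM, given as a description, since all values share libraries and depth. For Ubd the 5 most alike were Slamf8 (r = 0.98), Ciita (0.98), Gbp6 (0.98), Gbp5 (0.98) and Serpina3f (0.97). Ciita is the master activator of MHC class II genes, and Gbp5 and Gbp6 encode guanylate-binding proteins, which interferon-gamma induces. For Isg15 they were Oas1a (0.95), Parp12 (0.95), Usp18 (0.95), Tor3a (0.94) and Rnf114 (0.94). Oas1a encodes a sensor of double-stranded RNA induced by type I interferon, and Usp18 is itself a member of the system.

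Within groups, after each group's mean was taken away, the correlations with these genes stayed between 0.93 and 0.97 for Ubd and between 0.91 and 0.95 for Isg15. Among all genes ranked by likeness to Isg15, Usp18 stood at place 3, Uba7 at 38, Ube2l6 at 56, Herc6 at 550, Trim25 at 565 and Ubd at 1096. Ranked by likeness to Ubd, Herc6 stood at place 122, Uba7 at 719, Usp18 at 1135, Isg15 at 1273, Ube2l6 at 1316 and Trim25 at 7228. Herc6 was thus the member nearest to Ubd (r = 0.90), and Usp18 the member nearest to Isg15.

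The other parts of the pathway were read from lists of genes chosen by function. Partners of FAT10 showed no call beside that of Ubd. None of the 7 (the activating enzyme Uba6, the conjugating enzyme Ube2z, and Nub1, Hdac6, Psmd4, Sqstm1 and Vcp, which bind FAT10 or serve its breakdown) passed the threshold in either comparison with control. Their median log2 fold change was -0.47 in Mettl3 KO tumors, with all 7 below 0, beside -0.14 over all genes, and 0.03 in Mettl14 KO tumors. Uba6 had the smallest p of them in the Mettl3 comparison, at -0.90 on the log2 scale (SE 0.23; adjusted p in edgeR = 0.0524).

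Of 11 other enzymes and receptors of the ISG15 pathway, 1 rose in Mettl3 KO tumors and none fell, and their median was -0.40. The gene that rose was Itgal (1.14 on the log2 scale, SE 0.24; edgeR adjusted p = 0.0478), the alpha chain of the leukocyte integrin LFA-1, to which free ISG15 binds, at 17.1 ± 5.99 CPM in control and 39.3 ± 7.14 CPM in Mettl3 KO tumors (mean ± SD, n = 5). Its log2 fold change in Mettl14 KO tumors was 1.56 (edgeR adjusted p = 0.189). Of 25 genes of other ubiquitin-like modifiers and their enzymes, which cover ubiquitin, SUMO, NEDD8 and UFM1 among others, none passed, with a median of -0.43 in the Mettl3 comparison and -0.09 in the Mettl14 comparison. Nae1, a subunit of the enzyme that activates NEDD8, came nearest with -0.59 (edgeR adjusted p = 0.0524).

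Few relatives of either ligase passed. None of the 4 other HERC genes passed, with medians of -0.47 and -0.08, and Herc4 had the smallest p (log2 fold change -0.56 in Mettl3 KO tumors; edgeR adjusted p = 0.0704). Of 20 other TRIM genes 18 could be tested in each comparison, and in Mettl3 KO tumors 1 rose and 1 fell. Trim21, an antibody receptor inside cells and an interferon-induced ligase, rose by 0.57 on the log2 scale (SE 0.12; edgeR adjusted p = 0.0484). Trim33, a nuclear ligase that acts on SMAD4, fell by 0.78 on the log2 scale (SE 0.17; edgeR adjusted p = 0.0492). None of the 9 genes of the RIG-I pathway passed, and Ifih1, the sensor MDA5, came nearest with 0.66 (SE 0.17; edgeR adjusted p = 0.0524).

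Most calls in the lists fell among interferon genes. Of 12 transcription factor genes that act upstream, 3 rose in Mettl3 KO tumors and none fell. Examples were Stat2 (log2 fold change 0.98, SE 0.16; edgeR adjusted p = 0.0216) and Irf1 (1.23, SE 0.25; adjusted p = 0.0463). Of 13 interferon-gamma responders 11 rose and none fell, with a median of 1.90, and examples were the chemokine gene Cxcl10 (1.59, SE 0.19; edgeR adjusted p = 0.00986) and the guanylate-binding protein genes Gbp3 (1.93) and Gbp7 (1.68).

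Of 15 type I interferon responders 3 rose and none fell, with a median of 0.65, and these were Xaf1 (0.93), Oasl2 (0.99) and Rtp4 (1.05), with edgeR adjusted p-values of 0.0164, 0.0207 and 0.0321. In Mettl3 KO tumors Ubd at 2.96 lay above the highest of the 13 interferon-gamma responders (2.77). Isg15 at 0.41 and Usp18 at 0.43 lay under the median of the type I responders. No gene of any of the 9 lists passed in edgeR in Mettl14 KO tumors. The medians there were 0.74 for the transcription factors, 2.01 for the interferon-gamma responders and 0.96 for the type I responders, and all 13 and all 15 genes of the latter lists lay above 0. Ubd at 2.66 lay under the highest interferon-gamma responder in Mettl14 KO tumors (2.70). Isg15 at 1.02 lay above the median of the type I responders there, and Usp18 at 0.70 lay under it. These lists were drawn up with earlier results of these data known, so their direction is no independent support for that of the members.

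Markers of immune cells were also higher in many knockout libraries. The summed level of 11 T cell markers was 15.2 to 59.7 CPM in control, 67.0 to 219 CPM in Mettl3 KO and 39.3 to 323 CPM in Mettl14 KO tumors, and no marker was at 0 in all libraries of a group. The Mettl3 KO sums all lay above the control sums. All 11 had log2 fold changes above 0 in both comparisons, with medians of 1.50 and 1.54, and none passed the threshold in edgeR. The T cell sum was highest in Mettl3 KO replicate 1 and Mettl14 KO replicate 4 within their groups, where Ubd was highest too, and lowest in Mettl14 KO replicate 5, where all 7 members were lowest. Other libraries went the other way. The sum was lowest among Mettl3 KO tumors in replicate 5 (67.0 CPM), where Isg15 and Herc6 were highest and 4 members, Ubd included, were among the top 2. It was highest among control tumors in replicate 1 (59.7 CPM), where 5 of the 7 members were lowest. Ubd, however, was highest in control replicate 1 (3.89 CPM). Its lowest control library was replicate 5 (1.31 CPM), where the T cell sum was lowest too (15.2 CPM). B cell markers (7) summed to 8.51 to 37.0, 30.1 to 671 and 19.0 to 735 CPM in the same order of groups. The highest sums were Mettl3 KO replicate 1 and Mettl14 KO replicate 4, and the next in these groups were 53.0 and 75.5 CPM. Natural killer cell markers (6) summed to 49.4 to 92.7, 83.7 to 148 and 38.4 to 282 CPM. Prf1 made up a mean of 47.8 of the 73.4 CPM in control tumors and was lower in Mettl3 KO tumors (41.2 CPM), where the other natural killer cell markers had higher means.

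Sums of 8 dendritic cell markers overlapped throughout, at 70.3 to 101, 77.6 to 102 and 74.5 to 116 CPM. That sum is carried by Fscn1 (mean 59.4 CPM in control and 40.9 CPM in Mettl3 KO tumors) and Zbtb46 (17.1 and 16.1 CPM), whereas the other 6 markers had higher means in Mettl3 KO tumors, such as Xcr1 (1.89 and 7.71 CPM), Flt3 (3.16 and 9.05 CPM) and Clec9a (2.69 and 6.02 CPM), none of those tested past the threshold. Overlap was also seen for the sums of 9 macrophage markers, at 1183 to 2456, 1205 to 3028 and 1745 to 4857 CPM. Most of that sum is Lyz2 (mean 1018 CPM in control and 811 CPM in Mettl3 KO tumors) and Mrc1 (432 and 243 CPM). The other macrophage markers had higher means in Mettl3 KO tumors, from C1qc (138 and 140 CPM) to Adgre1 (55.9 and 82.7 CPM), none past the threshold. Neutrophil (6), fibroblast (6) and endothelial (5) marker sums also overlapped between groups. The sum of 6 epithelial tumor markers was 186 to 237 CPM in control, 53.5 to 112 CPM in Mettl3 KO and 83.3 to 169 CPM in Mettl14 KO tumors. Krt20 alone made up a mean of 187 of the 210 CPM in control tumors. Krt20 and Krt18 had lower means in both knockouts than in control (Krt18 14.2 CPM in control and 9.25 CPM in Mettl14 KO tumors). Epcam (1.45 and 3.45 CPM in control and Mettl3 KO tumors), Krt8 (1.65 and 2.88 CPM), Cdh1 (4.60 and 6.74 CPM) and Cldn4 (0.83 and 1.47 CPM) had higher means in Mettl3 KO tumors, none of those tested past the threshold. In Mettl14 KO tumors Epcam (1.03 CPM) and Krt8 (1.42 CPM) had lower means than in control, and Cdh1 and Cldn4 had higher ones. There 2 of the 6 log2 fold changes lay above 0. Of all 64 markers, Klrk1, an activating receptor of natural killer and T cells, rose in Mettl3 KO tumors (1.92 on the log2 scale, SE 0.33; edgeR adjusted p = 0.0269), Krt20, an intestinal keratin, fell by 1.76 (SE 0.28; adjusted p = 0.0217), and no other marker passed in either comparison with control. The part of these cell types, and of the share of reads outside genes, in the levels of the 7 genes was not tested.

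The authors' deposited table of fold changes does not state its direction in the header, and its signs match knockout minus control for 96.2% (Mettl3) and 98.0% (Mettl14) of the genes under an adjusted p of 0.05. In the authors' deposited table for Mettl3, the log2 fold change was 3.10 for Ubd (adjusted p = 5.64e-11), 0.95 for Herc6 (adjusted p = 0.000138) and 0.85 for Uba7 (adjusted p = 0.0142), and the other 4 genes had adjusted p-values of 0.0851 to 0.960. In the authors' deposited table for Mettl14, it was 2.68 for Ubd (adjusted p = 8.09e-05) and 1.09 for Herc6 (adjusted p = 0.000938), and the other 5 genes had adjusted p-values of 0.0530 to 0.379. Ubd and Herc6 were the members under 0.05 in both of the authors' deposited tables, which hold 1871 (Mettl3) and 503 (Mettl14) genes under that value. The share of all genes and the split by direction were not computed for these tables. The DESeq2 run made here called 296 genes higher and 1889 lower for Mettl3, and 204 higher and 58 lower for Mettl14.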

How the data were processed

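The 15 RNA-seq libraries of tumors (5 per group) were analysed from the deposited read counts per Ensembl gene. Per the submitters' processing notes, cutadapt 1.18, HISAT2 2.1.0, HTSeq 0.11.2, DESeq2 and mm10 were used, with reads of 75 nt per the labels' protocols. Which annotation release and which strand setting HTSeq used is not given in the sources used here. Rows that name no gene (56.8 to 86.2% of all reads per library) were left out of library sizes. The authors also deposited log2 fold changes, test scores, p-values and a mean normalized signal per gene, of which only the log2 fold changes and adjusted p-values are quoted. The control columns of both count tables were identical and were used once. No pair of replicates agreed within sampling noise.

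Counts were tested with edgeR 4.0.16 in R 4.3.3 (filterByExpr with a minimum count of 10, TMM, robust quasi-likelihood fit), with 10 libraries for each knockout against control and 15 for knockout against knockout. The standard error is the log2 fold change divided by the root of F. Alternatives were DESeq2 1.42.0, other scalings, filters and fits, a covariate, a replicate block and leaving out each library. Ratios used a pseudocount of 0.5 CPM. Exon lengths came from GENCODE M21, and symbols were matched for 54723 of 54752 IDs. Antisense and same-strand overlaps were read from the same annotation.

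The members and lists were chosen with earlier results of these data known. Named genes are all 7 members, up to 4 genes per list past the threshold in a comparison with control (those with the smallest p, or the 1 with the smallest p where none passed), and the 5 genes most like Ubd or Isg15, leaving out gene models and pseudogenes. Other genes are mentioned where they overlap a member or, for the targeted genes, as a check of the labels. The values of 1 gene that the rule names are not reported here.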

Additional observations from a re-analysis of the deposited data

How the results depend on the processing

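Of the 168 log2 fold changes recomputed without leaving out a library, 151 kept their direction and their side of the threshold. The number of members called in Mettl3 KO against control was 2 (0.406% of genes called higher). It was 1 with DESeq2 (1.73%), 1 with a filter of a mean of at least 1 CPM (0.28%) and 1 with no filter (0.0638%). It was 0 with the share of reads outside genes as a covariate (0.177%) and 1 with all 15 libraries in the fit (0.0692%). Leaving out 1 library gave 1 to 6. The 6 came from leaving out control replicate 1, where 36.2% of genes were called higher. Leaving out any other library gave 1 or 2 (0.135 to 0.247%). In Mettl14 KO against control the number of members called was 0, and 2 with DESeq2 (1.14%). It was 1 with no filter (0.058% of genes called higher) and 2 with all 15 libraries (0.195%), and leaving out 1 library gave 0 to 2. With 2 called without control replicate 1, 2.86% of genes were called higher, and with 2 called without Mettl14 KO replicate 5, 0.614% were. None was called between the knockouts under any alternative run. No ratio passed either, but with the smallest p at 0.00794 over 18 tests (0.0625 for 5 signed pairs) that says nothing about stability. The cause of these shifts was not tested.

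Signs turned only among small differences. Trim25 in Mettl3 KO against control went from -0.11 to 0.059 with library totals and to 0.31 with the covariate, and ran from -0.21 to 0.13 with 1 library left out. Between the knockouts the covariate gave 0.093 for Ube2l6 and 0.045 for Usp18. With 1 library left out, these differences ran from -0.0086 to 0.83 for Ubd, -0.34 to 0.084 for Ube2l6, -0.29 to 0.016 for Herc6 and -0.42 to 0.061 for Usp18. The log2 ratio differences to Isg15 ran from -0.042 to 0.084 for Usp18 in Mettl3 KO against control, from -0.29 to 0.0055 for Ube2l6 and -0.075 to 0.31 for Herc6 in Mettl14 KO against control, and from -0.25 to 0.17 for Trim25 between the knockouts.

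The labels do not say whether replicate numbers pair the samples. After each group's mean was taken away, same-numbered libraries correlated at -0.24 to 0.62 (Mettl3 KO with control), -0.75 to 0.22 (Mettl14 KO with control) and -0.67 to -0.11 (knockouts). The highest were replicates 1 (0.62) and 5 (0.57) of Mettl3 KO with control. With the replicate block, 4 members were called in Mettl3 KO against control (Ubd, Uba7, Ube2l6 and Herc6), with 8.83% of genes higher. In that fit 6002 of 21427 genes were called in either direction, against 266 without the block. The block gave 0 members in Mettl14 KO against control and 0 between the knockouts. Depth limits Ubd most, at 21 reads in the lowest control library.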
